A study of Mus musculus with 12 samples.

Results

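The genes described here encode the STAT3 signalling chain of the leukaemia cell: the interleukin-6 receptor subunits Il6ra and Il6st, the Janus kinases Jak1, Jak2 and Tyk2, the transcription factors Stat3, Stat5a and Stat5b, and the feedback inhibitors Socs1 and Socs3. They are 10 of 21627 protein-coding genes, chosen by name. Each was followed through every CpG that had at least 10 methylation calls in all 12 libraries, from 5000 bp outside one end of the gene to 5000 bp outside the other. That gave 852 of 1052856 such CpGs, 24 of 35383 gene regions and 43 of 87020 tiles of 1000 bp.

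Binding of interleukin-6 to its receptor IL6RA draws in the shared subunit gp130, the product of Il6st, whose attached Janus kinases phosphorylate the receptor and then STAT3. Phosphorylated STAT3 pairs up, enters the nucleus and binds DNA, and one of the genes it switches on is Socs3, whose product blocks the receptor complex. STAT5A and STAT5B are close relatives that serve many cytokine and growth-factor receptors of blood cells. In mammals, CpG islands at active gene starts are usually free of methylation while the bodies of transcribed genes usually carry it.

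The cells were CMM, a GFP-marked mouse line that models inv(16) acute myeloid leukaemia and was grafted into C57BL/6 mice by vein. CD11b-positive and CD11b-negative libraries were made from GFP-positive spleen cells, with or without the myeloid surface protein CD11b, of mice given CpG-STAT3dODN by vein. This agent joins a CpG oligonucleotide to a STAT3 decoy. PBS libraries were made from GFP-positive spleen cells of mice given PBS. Treatment began at about 1% GFP-positive cells in blood, was given 3 times, every other day, and spleens were taken 1 day after the last dose. There were 4 libraries in each of the 3 groups. No CD11b sort was made of the PBS cells, so treatment and selection for CD11b cannot be told apart where CD11b-positive cells are set against PBS cells. All groups come from 1 line, and since no label says whether each library is a different mouse, the p-values speak for the spread among these libraries alone.

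Reduced representation bisulfite sequencing reads CpG-rich restriction fragments, and each read calls a CpG as methylated or unmethylated. The libraries held 112671408 to 157223205 calls, and a CpG of these genes had a median of 79 calls per library (10 to 1144). CD11b-negative 2 stood apart from its group and lay with CD11b-positive 2: calls on Y genes were 40.2 and 41.3 per 1000000 autosomal calls in those libraries. They were 23.8 to 25 in the other CD11b-positive libraries, 8.64 to 12.9 in the other CD11b-negative libraries and 5.52 to 18.6 in PBS. Mean methylation of start windows on X was 12.8% in CD11b-negative 2 and 12.5% in CD11b-positive 2. It was 29.7% to 33.2% in the other CD11b-positive libraries, 35.1% to 42.2% in the other CD11b-negative libraries and 35.9% to 43.7% in PBS. Every CD11b-positive library thus lay above every PBS library in calls on Y genes and below every PBS library in X start methylation. CD11b-negative 2 had the highest body methylation of its group at all 10 genes, as at 82.4% of all gene bodies. Over all CpGs the mean was 34.7% ± 0.810 in CD11b-positive, 33.1% ± 1.59 in CD11b-negative and 31.4% ± 0.292 in PBS (SD, n = 4 each). Start windows of erythroid marker genes were called higher in CD11b-positive than in PBS at 3 of 4 measured genes (list mean per library 30.4% to 48.1% in CD11b-positive, 10.9% to 40.6% in CD11b-negative, 3.77% to 6.66% in PBS). In that order of groups, such calls were made at 1 of 3 T cell genes (55.6% to 59.9%, 42.9% to 64.0% and 41.8% to 51.4%), at 1 of 1 B cell gene (44.7% to 78.7%, 53.3% to 90.4% and 46.7% to 57.0%) and at 2 of 5 myeloid genes (49.6% to 66.0%, 48.0% to 70.0% and 49.4% to 53.2%). They were made at 2 of 6 stromal genes (24.8% to 30.01%, 20.8% to 29.2% and 19.9% to 22.1%), with 1 stromal gene lower. Of all start windows, 11.4% were called. The part of these differences in the results below was not tested, beyond a fit with the Y share as a term. CD11b-positive and PBS libraries do not overlap in that share, so for them the fit cannot separate the Y share from the group.

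The gene starts differ in how much CpG DNA they hold, which sets what could be measured there. Shown are the 250 bases before the start of 5 of the genes, from RefSeq on GRCm38.p6, the same build as mm10, 5′ to 3′ on the gene's own strand, with the measured CpGs in capitals. Stat3 and Stat5b show unmethylated starts, Stat5a the stretch with the fewest CpGs of the 5, Il6ra a start with methylated CpGs farther out, and Socs3 a STAT motif.
Il6ra (chr3:89913197-89913446, minus strand): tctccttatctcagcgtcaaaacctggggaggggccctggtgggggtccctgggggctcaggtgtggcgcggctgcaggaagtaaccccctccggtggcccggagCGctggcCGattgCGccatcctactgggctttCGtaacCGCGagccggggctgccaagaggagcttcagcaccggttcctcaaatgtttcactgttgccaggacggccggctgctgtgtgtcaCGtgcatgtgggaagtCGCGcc
Stat3 (chr11:100939541-100939790, minus strand): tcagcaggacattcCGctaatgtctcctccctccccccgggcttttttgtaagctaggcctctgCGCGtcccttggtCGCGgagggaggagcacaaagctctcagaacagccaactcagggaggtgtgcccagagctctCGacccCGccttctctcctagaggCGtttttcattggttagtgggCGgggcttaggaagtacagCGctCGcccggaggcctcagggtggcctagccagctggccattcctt
Stat5a (chr11:100859406-100859655, plus strand): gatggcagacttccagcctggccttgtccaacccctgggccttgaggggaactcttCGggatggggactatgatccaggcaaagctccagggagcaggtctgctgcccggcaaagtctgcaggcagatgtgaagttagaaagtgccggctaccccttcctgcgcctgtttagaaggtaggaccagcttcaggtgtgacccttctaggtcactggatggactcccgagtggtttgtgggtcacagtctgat
Stat5b (chr11:100850582-100850831, minus strand): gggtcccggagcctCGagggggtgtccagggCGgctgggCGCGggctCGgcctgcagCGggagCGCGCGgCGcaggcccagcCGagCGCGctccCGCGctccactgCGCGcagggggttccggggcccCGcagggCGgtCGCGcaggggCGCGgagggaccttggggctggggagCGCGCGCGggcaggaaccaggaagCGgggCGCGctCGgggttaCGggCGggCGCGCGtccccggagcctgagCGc
Socs3 (chr11:117969367-117969616, minus strand): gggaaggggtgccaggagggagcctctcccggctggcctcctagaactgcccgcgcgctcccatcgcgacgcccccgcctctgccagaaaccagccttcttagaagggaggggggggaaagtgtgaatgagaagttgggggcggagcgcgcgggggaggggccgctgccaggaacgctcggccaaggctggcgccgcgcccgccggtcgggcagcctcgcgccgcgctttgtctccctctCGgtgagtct
The Stat5b stretch holds 40 CpGs, the Socs3 stretch 26, the Il6ra stretch 18, the Stat3 stretch 13 and the Stat5a stretch 5, against a median of 6 over all listed promoters. Of these, 37, 1, 9, 11 and 1 were measured in the same gene order. The measured Stat3 CpGs had a mean level of 0.567% in CD11b-positive, 0.374% in CD11b-negative and 0.525% in PBS libraries. The single measured CpG of the Stat5a stretch had 54.9% ± 9.81 in CD11b-positive, 63.9% ± 8.32 in CD11b-negative and 65.3% ± 9.23 in PBS (SD, n = 4 each; adjusted p = 0.369, CD11b-positive against PBS, quasi-binomial test). The letters TTCNNNGAA, the core that STAT proteins bind, were found on both strands in the Socs3 stretch only, as TTCTTAGAA beginning 154 bases before the start. They were found in 2306 of 32851 promoters of the same length (7.02%), and the tighter form TTCCNGGAA, every match of which is also a match of TTCNNNGAA, in 0.913% of them and in 0 of these 10. A match is no more than those letters.

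Gene starts were almost free of methylation in all 3 groups, and none of the 10 was called in any comparison. A region was called where its adjusted p was below 0.05 and its group means lay 10 percentage points or more apart; a start region is a window of 1000 bp on each side of the start. The start is the most upstream one in the RefSeq promoter table, which lies inside the listed gene span by 8423 bp at Stat5b, 970 bp at Socs3, 305 bp at Stat5a and 118 bp or less at the other 7, so the Stat5b body includes DNA before its start. At levels under 5% a loss of that size is not possible. In CD11b-positive against PBS, 0 of 10 start windows were called, against 11.4% of all 13705 start windows. At 8 genes (Il6st, Jak1, Jak2, Tyk2, Stat3, Stat5b, Socs1 and Socs3) every library lay at or under 1.06%.

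The Stat3 start window (54 CpGs, 4951 to 8356 calls per library) had 0.708%, 0.542%, 0.620% and 0.572% in CD11b-positive, 0.705%, 0.547%, 0.637% and 0.718% in CD11b-negative, and 0.727%, 0.562%, 0.938% and 0.525% in PBS. The groups overlapped, and the difference of CD11b-positive minus PBS was -0.08 points (adjusted p = 0.922, quasi-binomial test). The window also overlaps the long noncoding gene Gm46295. Socs1 (117 CpGs) and Socs3 (67 CpGs) had 0.681% ± 0.248 and 0.714% ± 0.120 in CD11b-positive, against 0.590% ± 0.113 and 0.659% ± 0.0988 in PBS. At Tyk2 only 6 start CpGs were measured, with 69 to 216 calls per library. Methylated calls numbered 1 in each of CD11b-positive 1, CD11b-negative 2 and PBS 1 and 0 elsewhere, where 3 counts of the total allow up to 1.47% to 4.35%. Such limits cover counting error only, since the reads carry no molecular identifiers.

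Stat5a and Il6ra were the exceptions in level, at a few CpGs before the start. The Stat5a window (27 CpGs, which are also the measured 5 kb upstream flank of Stat5b) averaged 3.81% ± 0.501 in CD11b-positive, 4.14% ± 0.737 in CD11b-negative and 4.33% ± 0.466 in PBS. The CpGs 345 and 194 bp before the start carried 38.3% and 54.9% in CD11b-positive, 37.8% and 63.9% in CD11b-negative and 41.4% and 65.3% in PBS, while the other 25 were under 20% in PBS. Il6ra was the only start window with an adjusted p under 0.05 (0.00306, quasi-binomial test, CD11b-positive against PBS), with a difference of 1.04 points. It averaged 4.45%, 5.33%, 4.37% and 4.04% in CD11b-positive, 3.50%, 5.35%, 3.89% and 3.49% in CD11b-negative, and 2.94%, 3.98%, 3.48% and 3.65% in PBS.

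At Il6ra, the gene of the ligand-binding subunit, the difference lay at 3 CpGs outside the island. The CpG 892 bp before the start (chromosome 3, position 89914088) had 74.3%, 91.4%, 70.5% and 72.8% in CD11b-positive, 56.5%, 90.8%, 46.5% and 43.9% in CD11b-negative, and 31.3%, 59.0%, 39.8% and 47.3% in PBS. Every CD11b-positive library lay above every PBS library, by 32.9 points on average (adjusted p = 0.00232, quasi-binomial test), and CD11b-negative 2 lay with the CD11b-positive libraries. Its neighbour 900 bp before the start differed by 33.3 points and the CpG 674 bp before the start by 16.6 points (adjusted p = 0.00217 and 0.000116). Between them the CpG 756 bp before the start had 45% in CD11b-positive, 50.9% in CD11b-negative and 46.8% in PBS (adjusted p = 0.805 for CD11b-positive against PBS). In a window of 500 bp on each side, which leaves these CpGs out, Il6ra differed by -0.41 points (adjusted p = 0.0481), so the sign of the start difference is set by them. Closer in, no Il6ra start CpG reached 5% as a group mean, as the plot of single CpGs of Il6ra and Stat3 shows.

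**Figure D1:**
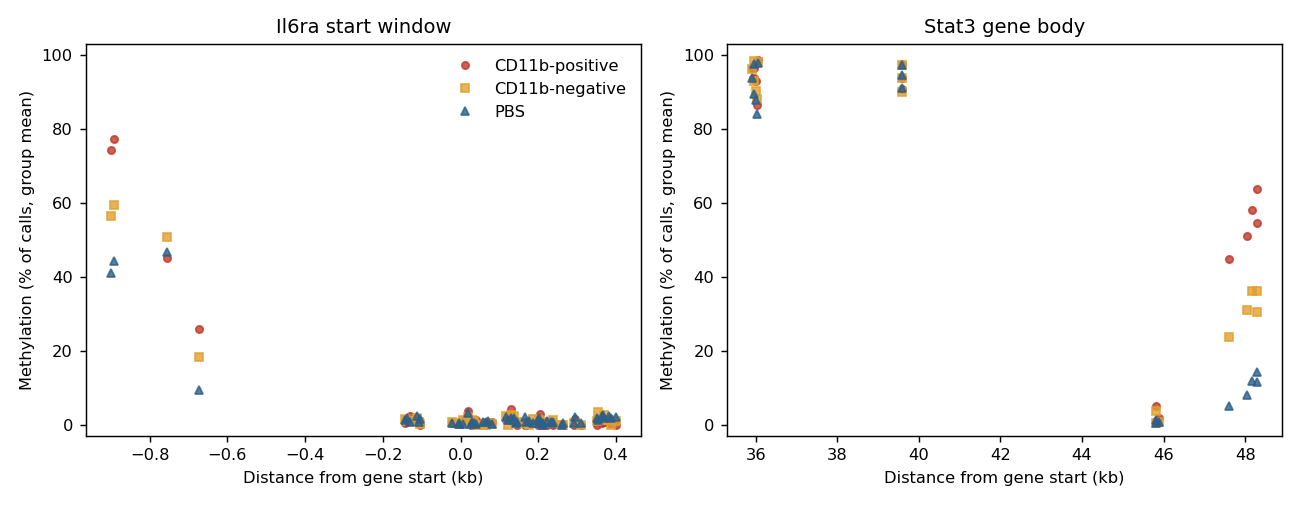
Methylation of single CpGs (y axis, percent of calls, mean of 4 libraries) by distance from the gene start (x axis, kb) in the Il6ra start window (left) and the last part of the Stat3 gene body (right), for CD11b-positive (red circles), CD11b-negative (yellow squares) and PBS (blue triangles). At 892 bp before the Il6ra start the means are 77.2%, 59.4% and 44.4%. The 5 Stat3 CpGs near 48 kb separate in the same order, and no Stat3 CpG closer to the start is called in CD11b-positive against PBS.

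The gene bodies carried the differences. In CD11b-positive against PBS, 3 of 24 regions were called, against 25.9% of all (22.3% of all higher), and an adjusted p under 0.05 alone was reached at 7 of 24, against 50% of all. Stat3 and Il6ra were called among the bodies, both higher: 2 of 10 bodies, against 38% of all 11868 gene bodies. The mean was higher in CD11b-positive at 10 of 10 bodies (89.1% of all), the libraries did not overlap at 7 of 10 (75.2% of all), and an adjusted p under 0.05 was reached at 5 of 10 (70.3% of all). The median body difference was 5.50 points for these genes and 7.02 for all. Read against those shares, the counts are no result about these genes in particular. The 5 kb flanks could be measured at 4 places, of which the Il6ra downstream flank was called (1 of 3 downstream flanks, 31.2% of all).

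**Figure D2:**
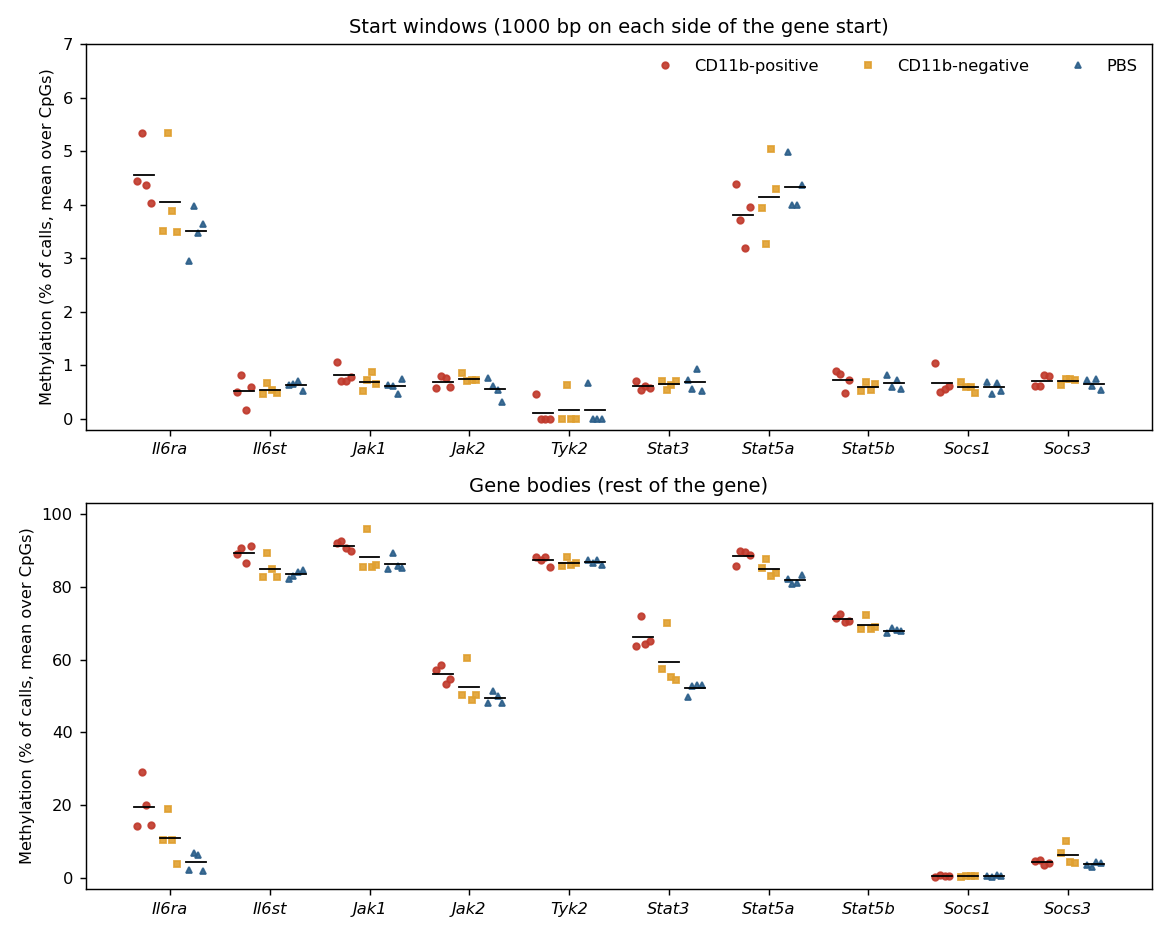
Methylation (y axis, percent of calls, mean over the CpGs of a region; the scales of the panels differ) of start windows (top) and gene bodies (bottom) in each library of CD11b-positive (red circles), CD11b-negative (yellow squares) and PBS (blue triangles), with the group mean as a bar. Start windows stay under 6%; the bodies of Stat3 (66.3%, 59.3% and 52.2%) and Il6ra (19.5%, 11% and 4.29%) differ most between groups.

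Among the receptor genes, Il6ra (mm10 chromosome 3, 89869324 to 89913196, minus strand) was called at 2 regions. Its body (4 CpGs, 301 to 551 calls per library, in part within the noncoding gene Gm46811) had 14.3%, 29.0%, 19.9% and 14.5% in CD11b-positive, 10.5%, 19.0%, 10.4% and 3.94% in CD11b-negative, and 2.07%, 6.76%, 6.31% and 2.01% in PBS. All CD11b-positive libraries lay above all PBS libraries, by 15.17 points on average (adjusted p = 0.00962, quasi-binomial test). Of the 4 CpGs, 3 lay close together at 89872418 to 89872443, in a called tile (11.8 points, adjusted p = 0.0104). The other lay at 89906293, so the body value rests on 2 places in the gene. The downstream flank (6 CpGs) had 61.5%, 73.7%, 61.5% and 58.8% in CD11b-positive, 51.6%, 74.8%, 43.7% and 42.1% in CD11b-negative, and 39.6%, 49.4%, 43.9% and 42.3% in PBS, a difference of 20.09 points (adjusted p = 0.00564). With the Y share as a term neither was called (5.94 points, adjusted p = 0.476, and 5.34 points, adjusted p = 0.575). Il6st, the gene of gp130 (chromosome 13, 112464070 to 112506860), had a body level of 89.4% ± 2.10 in CD11b-positive, 84.9% ± 3.11 in CD11b-negative and 83.4% ± 1.11 in PBS (9 CpGs; 5.92 points, adjusted p = 0.0335). Its 1 called CpG, 3727 bp after the start, had 59.1%, 77.6%, 42.9% and 60.5% in CD11b-positive, 25%, 79.4%, 18.2% and 13.0% in CD11b-negative, and 5.56%, 33.3%, 25% and 27.6% in PBS (adjusted p = 0.0193, 20 to 66 calls per library).

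The bodies of the kinase genes were not called. Jak1, a kinase of most cytokine receptors, had a body level of 91.3% ± 1.26 in CD11b-positive, 88.2% ± 5.11 in CD11b-negative and 86.2% ± 2.06 in PBS (6 CpGs; 5.07 points, adjusted p = 0.00509), and its strongest tile, 108.8 kb after the start, differed by 7.55 points. At the Jak1 body CD11b-negative 2 had 95.9% and the other CD11b-negative libraries 85.4% to 86.1%. Jak2, the kinase of the erythropoietin receptor, had 57.1%, 58.7%, 53.4% and 54.8% in CD11b-positive, 50.3%, 60.3%, 49% and 50.4% in CD11b-negative, and 48.1%, 51.3%, 49.9% and 48.2% in PBS. Those means over 8 CpGs did not overlap between CD11b-positive and PBS, but the test, which sums reads and so weights the deeply covered CpGs, gave an adjusted p of 0.785, and 0.0132 with the CpGs weighted equally. Within that body, a tile of 5 CpGs 25.4 kb after the start was called, with 89.2% ± 3.91 in CD11b-positive, 83.5% ± 8.16 in CD11b-negative and 78.8% ± 2.51 in PBS (10.5 points, adjusted p = 0.00273). It was not called without CD11b-positive 1 or 2, without PBS 1 or 4, or with the Y share as a term (3.38 points, adjusted p = 0.715).

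Tyk2, the kinase that also serves interferon receptors, held CpGs that moved in opposite directions. Its body level was 87.3% ± 1.22 in CD11b-positive, 86.6% ± 1.19 in CD11b-negative and 86.8% ± 0.704 in PBS (22 CpGs; 0.49 points, adjusted p = 0.131). About 21.1 kb after the start (positions 21110215 and 21110223 of chromosome 9), methylation was higher in CD11b-positive by 12.5 and 16.6 points (adjusted p = 0.00198 and 0.0109). The tile around them differed by 9.95 points and so missed the 10 points by a narrow margin. At position 21125923, 5352 bp after the start, it was lower: 34.6%, 30.1%, 39.7% and 26.1% in CD11b-positive, 54.8%, 39.5%, 52.2% and 55.5% in CD11b-negative, and 55.0%, 57.3%, 57.4% and 62.9% in PBS (-25.5 points, adjusted p = 0.00352). That CpG and its neighbour at 21125904 (-17.3 points, adjusted p = 0.0243) were the only called CpGs of the 10 genes with less methylation in CD11b-positive.

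Stat3 itself (chromosome 11, 100886806 to 100939594, minus strand), the gene of the factor the decoy is made for, showed the largest difference of any tile among these genes. Its body (17 CpGs, 2455 to 4223 calls per library) had 63.8%, 71.9%, 64.4% and 65.3% in CD11b-positive, 57.5%, 70.1%, 55.1% and 54.5% in CD11b-negative, and 49.9%, 52.8%, 53.1% and 53.0% in PBS. No CD11b-positive library overlapped a PBS library, and the difference was 14.17 points (adjusted p = 0.00191, quasi-binomial test). Most of it came from 5 CpGs at 100891245 to 100891940, inside the tile from 100891001 to 100892000, 48.2 kb after the start and 4.6 kb inside the gene's end. The tile had 47.1%, 69.9%, 50.1% and 50.6% in CD11b-positive, 27.8%, 63.3%, 17.8% and 17.2% in CD11b-negative, and 3.85%, 13.4%, 12.3% and 10.9% in PBS. The lowest CD11b-positive library thus lay far above the highest PBS library, 3 CD11b-negative libraries lay between the groups near the PBS side, and CD11b-negative 2 lay among the CD11b-positive libraries.

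The Stat3 tile gained 44.3 points in CD11b-positive over PBS (adjusted p = 0.000746, quasi-binomial test), with 670 to 1135 calls per library. By summed calls, CD11b-positive 4 had 45.9% (95% Wilson interval 42.4% to 49.4%) and PBS 2 had 11.2% (9.35% to 13.4%). A gain at least as large was seen at 249 of 87020 tiles (0.286%), and at 0.593% of the 25809 tiles under 20% in PBS. Each of its 5 CpGs was called, with gains of 39.8 to 49.4 points. Closer to the start, 3 CpGs at 100893656 to 100893727 stayed at or under 5.17% in each group mean, and the 9 CpGs from 100899949 to 100903632 lay between 84.0% and 98.6% in all groups. With the Y share as a term the Stat3 body was not called (11.1 points, adjusted p = 0.158). The tile was still called with that term (26.9 points, adjusted p = 0.0198), 1 of 125 such tiles in the genome. The Y shares of CD11b-positive and PBS libraries do not overlap, so points from that fit are not corrected effects. In each of the 16 alternatives run the Stat3 tile was called, with a gain of 26.9 to 46.8 points and an adjusted p of 4.17e-05 to 0.0198.

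**Figure D3:**
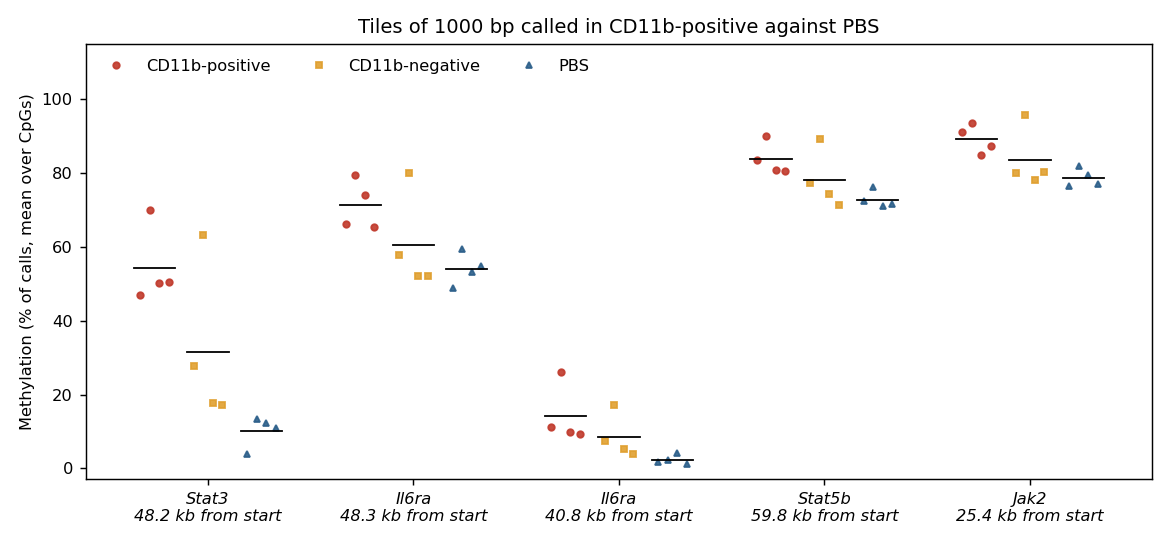
Methylation (y axis, percent of calls, mean over the CpGs of the tile) of the 5 called tiles of 1000 bp in each library of CD11b-positive (red circles), CD11b-negative (yellow squares) and PBS (blue triangles); bars are group means and labels give the distance from the gene start. The Stat3 tile averages 54.4%, 31.5% and 10.1%, and 1 yellow square, CD11b-negative 2, lies high in each tile.

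Stat5a (chromosome 11, 100859351 to 100885169), which lies head to head with Stat5b and next to Stat3, held a similar pair of CpGs. Position 100879727, 20071 bp after the start, had 40.6%, 67.5%, 44.4% and 40.5% in CD11b-positive, 24.8%, 65.1%, 18.7% and 12.3% in CD11b-negative, and 11.2%, 9.41%, 7.57% and 8.16% in PBS (39.1 points, adjusted p = 0.000256, quasi-binomial test). Its neighbour at 100879772 had 46.1% ± 14.7 in CD11b-positive, 26.6% ± 23.0 in CD11b-negative and 5.42% ± 0.434 in PBS (40.6 points, adjusted p = 0.000197). In both, every CD11b-positive library lay above every PBS library and CD11b-negative 2 lay among the CD11b-positive libraries. With the Y share as a term both were still called (23.9 and 24.7 points, adjusted p = 0.0273 and 0.00710), along with the Stat3 CpGs at 100891496 and 100891940 (26.3 and 28.6 points, adjusted p = 0.0370 and 0.00139). These 4 were the only CpGs of the 10 genes called in that fit, which called 0.106% of all CpGs. The other body CpGs were mostly full: 21 of 28 were at 80% or more in PBS, and the body as a whole had 88.5% ± 1.79 in CD11b-positive, 85% ± 2.11 in CD11b-negative and 81.9% ± 1.12 in PBS (6.62 points, adjusted p = 0.00269, not called).

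Stat5b (chromosome 11, 100780731 to 100859004, minus strand) had a body level of 71.3% ± 0.863 in CD11b-positive, 69.5% ± 1.81 in CD11b-negative and 68.0% ± 0.547 in PBS (48 CpGs; 3.29 points, adjusted p = 0.0785, quasi-binomial test). Within it, position 100820080, 30501 bp after the start, had 66.0%, 84.1%, 60.7% and 62.9% in CD11b-positive, 44.2%, 83.5%, 36.0% and 31.3% in CD11b-negative, and 31.8%, 46.5%, 36.1% and 39.1% in PBS (30.03 points, adjusted p = 0.00110). A tile of 3 CpGs 59.8 kb after the start was called, with 83.8% ± 4.40 in CD11b-positive, 78.1% ± 7.73 in CD11b-negative and 72.8% ± 2.29 in PBS (11.03 points, adjusted p = 0.0106). It was not called without CD11b-positive 2 or with the Y share as a term (2.24 points, adjusted p = 0.805).

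The inhibitor genes held no called CpG, tile or region in these comparisons. Socs1 (chromosome 16, 10783808 to 10785536, minus strand), whose product blocks Janus kinases directly, is a short gene with measured CpGs under 20% in PBS throughout, and its body averaged 0.548% ± 0.178 in CD11b-positive, 0.487% ± 0.116 in CD11b-negative and 0.509% ± 0.207 in PBS. The Socs3 body (chromosome 11, 117966079 to 117970336, minus strand; 23 CpGs) had 4.69%, 5.02%, 3.46% and 4.25% in CD11b-positive, 6.99%, 10.2%, 4.35% and 4.02% in CD11b-negative, and 3.62%, 2.91%, 4.34% and 4.11% in PBS. The difference of CD11b-negative minus PBS there was 2.64 points (adjusted p = 0.655) and rested on the libraries CD11b-negative 1 and 2.

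Set side by side with their own starts, the bodies of Stat3 and Il6ra moved away from an almost constant start. The gap of body minus start was 65.7 ± 3.79 points in CD11b-positive and 51.5 ± 1.56 in PBS at Stat3 (difference 14.3, adjusted p = 0.00529, limma), and 14.9 ± 6.41 in CD11b-positive and 0.775 ± 2.37 in PBS at Il6ra (difference 14.1, adjusted p = 0.00646, limma). These were 2 of 10 called gaps, against 38.2% of 9197 genes with both regions. With the Y share as a term neither gap was called (8.04 points, adjusted p = 0.119, at Stat3 and 4.84 points, adjusted p = 0.429, at Il6ra, limma). With region levels taken from summed counts the Il6ra gap, at 9.62 points, was not called. The median difference of gaps was 5.45 points for the 10 genes and 6.46 for all. The plot of all 852 CpGs gives the levels behind these gaps.

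**Figure D4:**
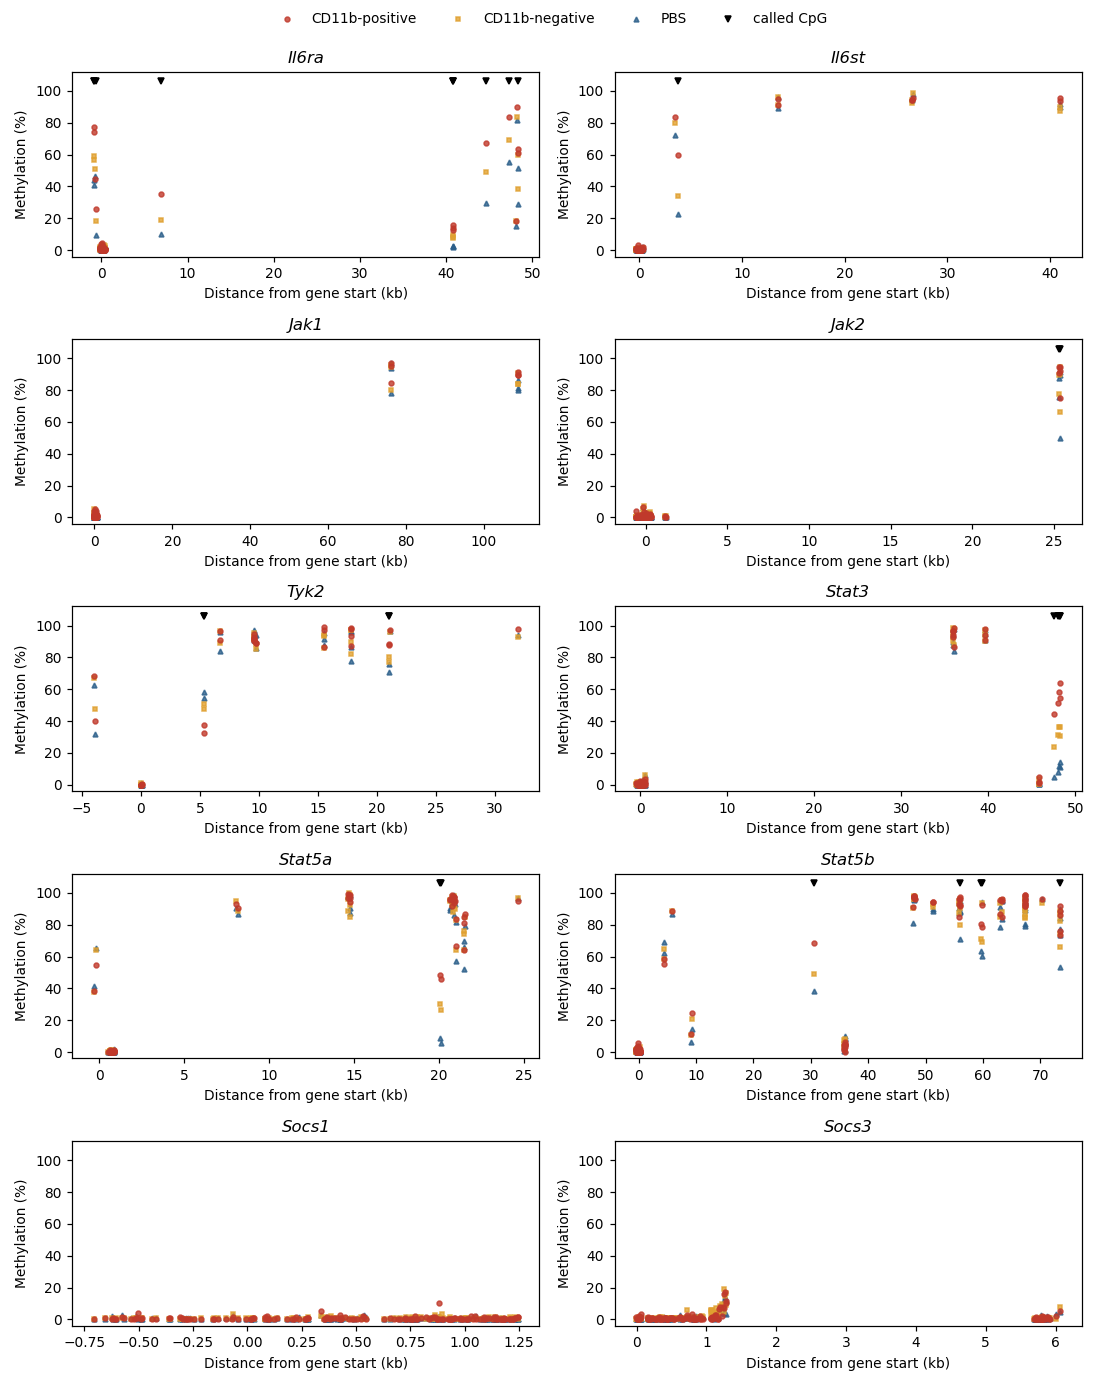
Methylation of every measured CpG (y axis, percent, mean of 4 libraries) by distance from the gene start (x axis, kb; the scales differ) for the 10 genes, for CD11b-positive (red circles), CD11b-negative (yellow squares) and PBS (blue triangles); black marks show the 29 CpGs called in CD11b-positive against PBS. The CpGs near each start lie close to 0 apart from a few of Stat5a and Il6ra. Of the called CpGs, 3 lie in the Il6ra start window and the others in bodies or flanks.

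Counted over single CpGs, 29 of 852 were called in CD11b-positive against PBS (3.40%, against 16.7% of all CpGs), 27 higher and 2 lower. By gene, 10 were at Il6ra, 5 at Stat3, 5 at Stat5b, 4 at Tyk2, 2 at Stat5a, 2 at Jak2 and 1 at Il6st. Of the 27 higher, 24 lay in bodies or flanks and 3 in the Il6ra start window, and 0 lay in CpG-dense DNA, which held 658 of the 852. The level in PBS went with the calls: 8 of 25 CpGs at 5% to 20% in PBS were called higher (28.8% of all such CpGs), 15 of 37 at 20% to 80% (40.3%), 4 of 694 under 5% (0.451%), 0 of 60 at 80% to 95% (2.69%) and 0 of 36 above that. Of the tiles, 5 of 43 were called, all higher, against 36% of all tiles (32.3% higher and 3.71% lower), and 17 of 43 had an adjusted p under 0.05, against 59.6% of all. Without CD11b-positive 2, 2 of 43 tiles were called, those of Stat3 and of the Il6ra downstream flank, against 30.9% of all tiles.

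**Figure D5:**
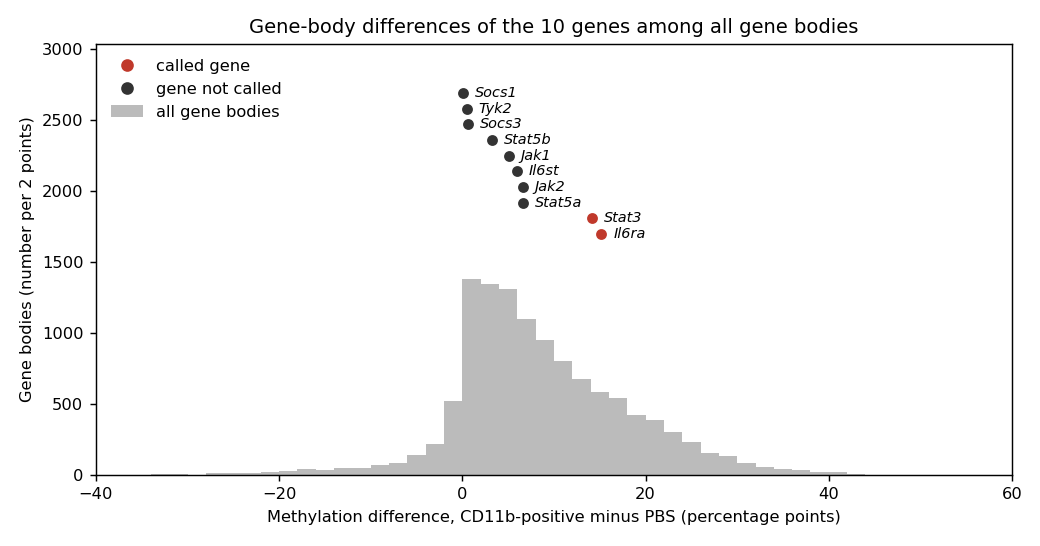
Number of gene bodies (y axis) by difference in methylation, CD11b-positive minus PBS (x axis, percentage points, bars of 2 points, shown from -40 to 60), for all 11868 bodies, with the 10 genes as dots above the bars (red where called; their height has no meaning). Il6ra (15.17 points) and Stat3 (14.17) lie right of the other 8, and all 10 lie inside the range of the other bodies.

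Against PBS, CD11b-negative cells gave 0 called regions, tiles, CpGs or gaps, among these genes and in the genome, by the quasi-binomial test, edgeR (regions and tiles) and limma (gaps). At an unadjusted p under 0.05 there were 27 of 852 CpGs and 2 of 43 tiles of these genes, against 5.07% of all CpGs and 9.85% of all tiles, and 1 of 24 regions, against 7.07% of all. The Stat3 tile was higher in CD11b-negative by 21.4 points, with no overlap of the libraries (adjusted p = 0.487). The Stat3 body differed by 7.15 points, also with no overlap (adjusted p = 0.655). With the Y share as a term, 4 CpGs were called higher in CD11b-negative (0.157% of all CpGs in that fit), and they were the same 4 of Stat5a and Stat3: 11.7 and 12.7 points at Stat5a (adjusted p = 0.0197 and 0.00163) and 13.2 and 12.5 points at Stat3 (adjusted p = 0.0303 and 0.00328). At 27 of the 27 CpGs called higher in CD11b-positive, the CD11b-negative mean lay between those of CD11b-positive and PBS. This held at 98.9% of all CpGs called higher. At 26 of the 27 the highest CD11b-negative library was CD11b-negative 2 (97% of all called higher), and at 22 of the 27 the other 3 lay below every CD11b-positive library (76.3%). The body means ran CD11b-positive over CD11b-negative over PBS at 7 of 10 genes, against 82.1% of all genes.

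CD11b-positive against CD11b-negative cells, both from treated mice, also gave 0 calls in the quasi-binomial test without a block. At an unadjusted p under 0.05 there were 41 of 852 CpGs and 6 of 43 tiles, against 6.87% of all CpGs and 10.9% of all tiles, and 2 of 24 regions, against 9.78% of all. edgeR called 0 regions and 0 tiles too. Samples with the same number deviated together at numbers 2, 3 and 4 (r = 0.942, 0.721 and 0.735) but only weakly at number 1 (r = 0.181). At numbers 1 and 4 a library of another number matched better, and no label pairs them. With the number taken as a block, 1 of 24 regions was called (9.25% of all regions). It was the Il6ra downstream flank (13.9 points, adjusted p = 0.0380, quasi-binomial test). In that fit 2 of 43 tiles were called (13.6% of all), the Stat3 tile at 22.9 points (adjusted p = 0.00482) and the Il6ra downstream tile at 12.9 points (adjusted p = 0.0193), and 17 of 852 CpGs (6.72% of all), 16 of them higher in CD11b-positive. Without CD11b-negative 2 and with no block, the Stat3 body was called at 10.6 points (adjusted p = 0.0367) and the Il6ra downstream flank at 18.1 points (adjusted p = 0.0249; 15.4% of all regions called), and the Stat3 tile at 33.5 points (adjusted p = 0.0193; 19.8% of all tiles).

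Other genes of the pathway, from lists chosen with earlier results of these data known, were described in the same way for CD11b-positive against PBS. Of the other Janus kinases and STATs, 0 of 4 start windows and 0 of 5 bodies were called. Of their downstream flanks 1 of 4 was called, that of Stat2, a partner in interferon signalling, higher by 14.2 points. Of the cytokine and receptor genes, 3 of 21 start windows were called higher, and 7 of 19 bodies higher and 1 lower. The body of Il10rb, a subunit of the interleukin-10 receptor, was lower by 10.05 points (difference -10.05, adjusted p = 0.0325). Of the other inhibitors, 1 of 16 start windows was called, lower, at the phosphatase gene Ptprt (-16.9 points), and 2 of 13 bodies, both higher. The largest was Cish, a SOCS-family inhibitor of STAT5, with 69.9%, 90.7%, 54.7% and 59.7% in CD11b-positive, 35.1%, 90.3%, 33.3% and 24.6% in CD11b-negative, and 16.8%, 46.2%, 28.3% and 32.4% in PBS (37.8 points, adjusted p = 0.00731). Of genes described as STAT3 targets, 0 of 18 start windows and 2 of 17 bodies were called, with Bcl2l1, a survival gene, at 15.3 points. Of the 11 upstream flanks measured at these targets, 2 were called higher and 1 lower. The lower one was that of Mcl1, another survival gene (difference -25.7 points, 3 CpGs, adjusted p = 0.0115). These counts stand against the 11.4% of start windows, 38% of bodies, 31.2% of downstream flanks and 25.9% of gene regions of every kind called in all. None of them is therefore read as particular to its list.

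Over the 12 libraries, the Il6ra downstream flank had the widest range of any region of these genes, 35.3 points. The regions of other genes most like it by Pearson's r over the 12 libraries were the bodies of Pgm5, Abhd6 and Aoc3 (r = 0.997 each), which have the same high CD11b-positive 2 and CD11b-negative 2: the Pgm5 body had 91.5% and 89.4% in those libraries. The libraries form the same 12 points at each region, so these values are a description.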

How the data were processed

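DNA methylation was measured by reduced representation bisulfite sequencing in 12 libraries, 4 in each of 3 groups. The deposited counts give, per CpG and strand, the reads that call it methylated and unmethylated. They carry no normalisation. The submitters' processing notes name mm10 as the build, methylKit 1.20.0 and Bismark as tools, and cutadapt 2.7 and Trim Galore 0.6.4 besides. Bismark's version, duplicate removal and conversion rates: not given in the sources used here. Reads carry no molecular identifiers.

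Calls of both strands were summed, and CpGs with at least 10 calls in all 12 libraries were kept. A start window reached 1000 bp to each side of the most upstream start in the RefSeq promoter table (17273 of 21627 genes; for the other 4354, the gene end with more of these CpGs). The body was the rest of the gene, and flanks the rest of 5000 bp. Exons and introns were not assigned. Regions and tiles of 1000 bp needed 3 CpGs. Levels are means over CpGs. Summed counts were tested with a quasi-binomial logistic model and F test, with a Pearson dispersion moderated as in limma's squeezeVar, in bins of mean level cut at 5%, 20%, 80% and 95%, with a floor of 1, and Benjamini-Hochberg adjustment over all features of a kind. The gap of body minus start was tested with limma 3.58.1, and edgeR 4.0.16 was an alternative. Both steps were tested on simulated data. Only the 8 libraries compared entered a fit. A dense CpG had at least 25 listed CpGs within 250 bp to each side.

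The Y share is the number of calls on 8 Y genes per 1000000 autosomal calls. Over gene bodies, the deviations of same-numbered CD11b-positive and CD11b-negative libraries had r = 0.181, 0.942, 0.721 and 0.735, all over 0.1 but weak at number 1. The numbers were taken as pairs there, from the data and not from a label. At numbers 1 and 4 a library of another number matched better (r = 0.230 and 0.743), so the pairing is an assumption. Named were all 10 genes, in each the called tile or cluster of CpGs with the largest gain and loss, otherwise the tile with the largest difference, and in each list the called gene with the largest gain and loss, of which 1 is not reported here. The members and lists were chosen with earlier results of these data known.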

Additional observations from a re-analysis of the deposited data

Results flagged for a closer look

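In 12 of 84 groups of 4 libraries, 1 library lay so far from the other 3 that its gap passed Dixon's 95% critical value. For separate groups of normally spread values chance alone flags about 1 in 20. The 12 of 84 cannot be set against that rate. The called tiles lie inside regions that were also counted, and at the Tyk2 start 1 methylated call against 0 is always flagged. CD11b-negative 2 was the library at 5 of them. It had 72.2% at the Stat5b body (the others 68.3% to 68.9%), 60.3% at the Jak2 body (49% to 50.4%), 95.9% at the Jak1 body (85.4% to 86.1%) and 95.7% at the Jak2 tile (78.1% to 80.3%), and at the Tyk2 start 0.641%, from 1 methylated call where the others had 0. CD11b-positive 2 was the library at 2: the Stat3 tile with 69.9% (47.1% to 50.6%) and the Il6ra body tile with 26.2% (9.18% to 11.2%).

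The other 5 were PBS 1 at the Stat3 body with 49.9% (52.8% to 53.1%), PBS 3 at the Socs1 body with 0.816% (0.367% to 0.440%), CD11b-negative 1 at the Jak2 start with 0.859% (0.704% to 0.726%), and CD11b-positive 1 and PBS 1 at the Tyk2 start with 0.463% and 0.667%, from 1 methylated call each.

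Calls on Y genes, which no comparison above uses as an outcome, were 23.8 per 1000000 autosomal calls or more in every CD11b-positive library, against 5.52 to 18.6 in PBS. Their part in the differences was not tested beyond the fit with the Y share as a term. Since the shares of these groups do not overlap, that fit cannot separate the Y share from the group.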

How the results depend on the processing

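No direction of a called region, tile or gap reversed under the alternatives run. For CD11b-positive against PBS, with the Y share as a term the called regions numbered 0 (0.0509% of all), the tiles 1 (0.144%), the CpGs 4 (0.106%) and the gaps 0 (0.0109%). With an adjusted p alone they numbered 7 regions (50% of all), 17 tiles (59.6%) and 7 gaps (70.9%), 15 of those tiles higher. The fit of all 12 libraries called 19 CpGs (7.31% of all CpGs). Leaving out 1 library at a time gave 3 regions, 2 to 6 tiles, 21 to 33 CpGs and 2 gaps. Over all features the share called without CD11b-positive 2 was 21.7% of regions, 30.9% of tiles, 15% of CpGs and 31.9% of gaps. Without PBS 1 it was 21.2% of regions, 31% of tiles and 11.4% of CpGs. The tiles of the Il6ra body and Stat5b were not called without CD11b-positive 2, nor the Jak2 tile without CD11b-positive 1 or 2 or PBS 1 or 4. For CD11b-negative against PBS, the Y share as a term gave 4 CpGs (0.157% of all CpGs), and leaving out 1 library 0 calls. For CD11b-positive against CD11b-negative, the replicate block gave 1 region, 2 tiles and 17 CpGs (9.25%, 13.6% and 6.72% of all). Leaving out 1 library gave 0 to 2 regions, 0 to 2 tiles, 0 to 19 CpGs and 0 to 1 gap. The highest of each came without CD11b-negative 2. Over all features that fit called 15.4% of regions, 19.8% of tiles, 7.32% of CpGs and 29.1% of gaps.

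The replicate block made 4 regions called in CD11b-positive against PBS, adding the Stat5a body (11.2 points, adjusted p = 0.00103), with 5 tiles and 30 CpGs, against 26.4% of all regions, 35.3% of all tiles and 18.5% of all CpGs. These groups were not taken as pairs (r between same-numbered libraries 0.198, 0.768, 0.247 and -0.117). Nor were CD11b-negative and PBS (0.508, 0.811, 0.341 and -0.145), where the block gave 0 calls of regions and tiles. Minima of 5 and 20 calls, other start windows, CpGs weighted equally and edgeR gave counts within 1.5 times of those reported, and the cause of the changes above was not tested. With region levels from summed counts the Stat5a gap was called and the Il6ra gap was not. Depth limits regions of few calls, such as the Tyk2 start, and single CpGs.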
